A study of Mus musculus with 6 samples.

Results

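Round spermatids (RS) are the haploid male germ cells that have just completed meiosis and have not yet begun to elongate. Their poly(A) tails were described here across 3175 contigs of the 12114 in the count table, namely every contig with 20 or more reads in each of 3 RS samples. A contig is the sequence to which a read was aligned, either 1 annotated transcript or 1 copy of a repeat element. RS were sorted from testis suspensions of adult male C57BL/6J/B6 mice after staining with Hoechst and PI, by DNA content, red fluorescence and light scatter, so each sample is an enriched and not a pure population. Each of the 3 samples was a pool of mRNA from 3 mice, and the 3 were barcoded and sequenced as 1 library. The mice carried no transgene and received no treatment according to the labels. The series also holds 3 samples of pachytene and diplotene spermatocytes (P/D) in a separate library, which were not compared here.

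In most cells a poly(A) tail is added to an mRNA as it leaves the gene, binds poly(A)-binding proteins in the cytoplasm and is shortened as the mRNA ages. Spermatids make many of the mRNAs for the acrosome, the flagellum and the compacted sperm nucleus early, while their genes can still be transcribed, and keep part of this store untranslated until transcription stops. Cytoplasmic poly(A) polymerases and deadenylases change the tails of stored mRNAs, and for that reason tail length has long been followed in these cells. In direct RNA sequencing each read is 1 native polyadenylated RNA molecule that enters the pore with its tail first. Abundance, given as CPM (reads per 1000000 reads of the sample), can therefore be set side by side between genes without a correction for length.

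The 3 samples held 316653, 474688 and 356015 reads as listed by contig, and 79.9%, 78.6% and 79.1% of them lay on the 3175 contigs. The contigs comprised 3162 annotated transcripts of 2586 genes and 13 repeat elements, and 2916 were protein-coding transcripts of nuclear chromosomes. Of 1144284 distinct RS reads, 2902 were listed on more than 1 contig and counted on each, and 131 listings repeated a read on its contig. At the threshold, 123 contigs had exactly 20 reads in their lowest sample and 136 contigs just outside had 19. The total over the 3 samples ran from 61 to 9459 reads with a median of 163, so the precision of a share differs widely between genes.

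The markers of the label were all present. Acrv1, which encodes an acrosomal matrix protein, had 483, 432 and 449 CPM. Spaca1, for an acrosomal membrane protein, had 360, 383 and 362, and Tssk1, a testis-specific kinase gene, had 471, 541 and 534. Both genes of nuclear compaction among the markers were far more abundant, with Prm1 (protamine 1), over its contigs, at 7046, 9290 and 8297 and Tnp1 (transition protein 1) at 3591, 5075 and 4803 CPM. All 11 genes of a longer list of RS markers passed the read minimum. Of 11 P/D markers, 4 passed it, and the list took 466, 694 and 477 reads. The defining synaptonemal complex gene Sycp3 had 13, 27 and 14 reads, a mean of 45.8 CPM. Spata16, Spag6, Ccna1 and Ovol2 were higher, with means of 392, 298, 280 and 245 CPM, against 369 for Spaca1. Every other P/D marker had a mean of 48.4 CPM or less. Markers of spermatogonia took 4, 6 and 5 reads, Sertoli cell markers 2, 5 and 0, and Leydig cell markers 1, 5 and 4, with no member at the minimum. None of the 10 listed peritubular, endothelial and blood cell markers had a contig in the count table. Only 2 of 9 spermatogonia, 3 of 8 Sertoli cell and 3 of 7 Leydig cell markers had one. Genes without a contig in the table could not be counted, so these low totals do not measure purity. What part P/D mRNA had in the tails given below was not tested.

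Tails were sorted into a short class of 30 to 120 nt, a long class of 120 to 210 nt and a very long class of 210 nt or more, a tail at a boundary being put in the longer class. Of all reads on the 3175 contigs, 68.7%, 67.5% and 69.4% in samples 1, 2 and 3 were long, 21.9%, 23.4% and 20.4% were short, and 9.20%, 8.71% and 10.1% were very long. Tails under 30 nt made up between 0.182% and 0.339%. The read profile had a single peak in the bin of 160 to 165 nt in all 3 samples, with 5.48%, 5.31% and 5.52% of the reads, and a shoulder on its short side. Sample 2 had the lowest long share and the highest short share.

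**Figure D1:**
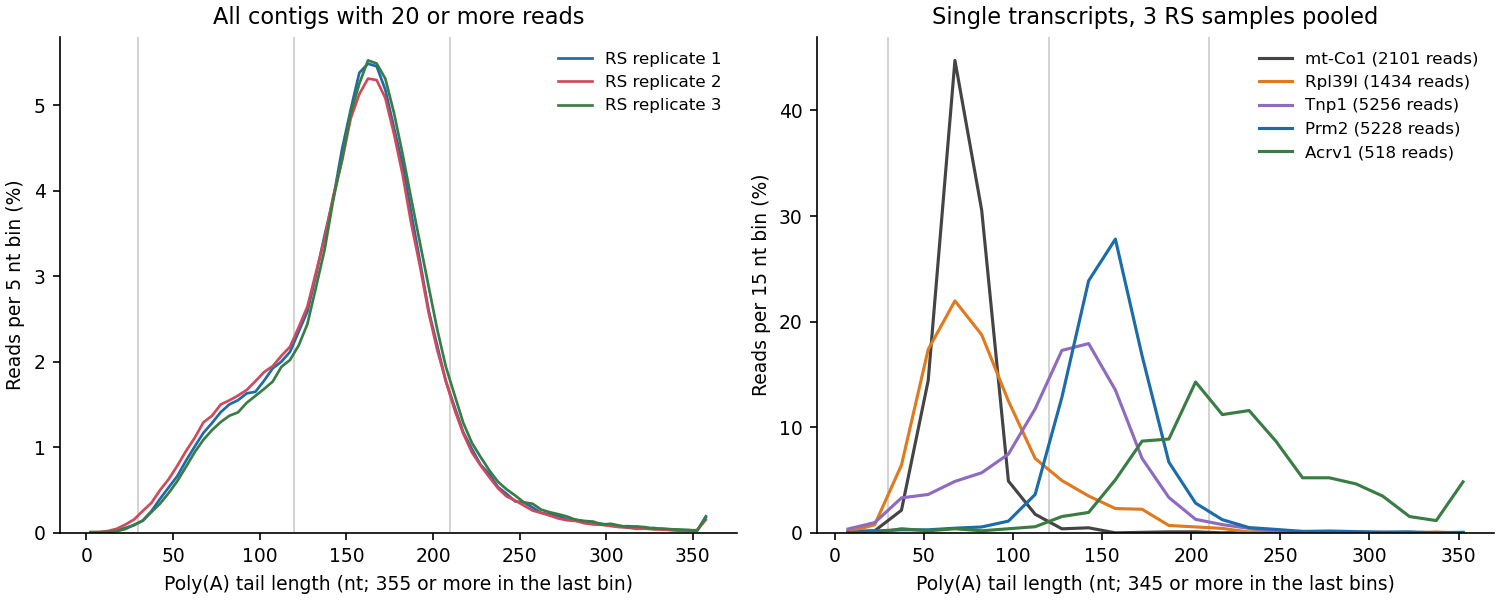
Poly(A) tail profiles in RS, with the percent of reads (y axis) against tail length in nt (x axis); grey lines stand at 30, 120 and 210 nt. On the left the 3 samples overlie each other with a peak at 160 to 165 nt, and on the right the reads of 5 transcripts, pooled over the 3 samples, peak at 60 to 75 nt for mt-Co1 and Rpl39l, 135 to 150 nt for Tnp1, 150 to 165 nt for Prm2 and 195 to 210 nt for Acrv1.

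The typical contig had a lower short share and a higher long share than the pool of all reads. The median contig had a mean tail of 160.5 nt ± 2.5 (SD of the 3 sample medians), a long share of 72.4% ± 0.411, a short share of 14.8% ± 1.25 and a very long share of 9.06% ± 0.712. Between contigs the spread was much wider than between samples. The long share had a 5th percentile of 28.7% and a 95th of 87.2%, whereas a contig's own long share varied by a median SD of 4.64 percentage points between the 3 samples. Across the 3175 contigs, mean tails of any pair of samples correlated with r between 0.915 and 0.930, long shares between 0.880 and 0.899, and very long shares between 0.646 and 0.697; contigs are not independent replicates, and very long reads are few. Within 1 contig, single molecules varied by a median SD of 42.7 nt.

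To find the contigs that stood apart, each contig was compared with the median contig of the same sample by limma, with Benjamini-Hochberg adjustment over all 3175 contigs and a threshold of 0.05. The mean tail was lower than the sample median for 1203 contigs (37.9%) and higher for 1059 (33.4%). The long share was lower for 983 (31%) and higher for 893 (28.1%). The very long share was lower for 479 (15.1%) and higher for 289 (9.1%). With a sample left out fewer of the same contigs were higher in very long share, 147 without sample 1 and 185 without sample 3. Such a fit has fewer samples and less power. Fits with equal numbers of samples still differed, with the lowest count without sample 1. Whether the fall came from less power or from single samples was not tested. The percentages over all 3175 contigs are the background against which gene groups are read below. They are not matched for abundance, with which the calls rose. Of the nuclear protein-coding contigs in the lowest of 5 abundance bins, 68 of 584 were higher and 162 lower in long share. In the highest bin, 287 of 583 were higher and 196 lower. The very long share was higher for 4.28% and 12.2% of these bins. Because the 3 samples came from 1 library and nothing else in the design varied, the p-values measure only the spread between these pools.

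Long reads made up over 50% of the reads of 2427 contigs (76.4%) in every sample. A smaller set escaped this pattern. In 324 contigs (10.2%) of 303 genes, short reads outnumbered long reads in every sample, and these are called escaping contigs here. They carried 9.93%, 9.75% and 9.61% of the reads. Their long share ran from 0% to 46.4% with a median of 29.1%, and 20 had a long share under 10%. Another 276 contigs had neither class ahead in all 3 samples, and in the remaining 2575 long reads outnumbered short reads throughout. At the edge of the class, Tuba3a was inside with 48.8%, 44% and 46.5% long against 49.3%, 53.1% and 50.9% short, and Arf1, with 44%, 45.9% and 43.9% long against 48.0%, 45.9% and 43.9% short, was just outside through ties. The count depends on the boundary between the classes. It was 73 with the boundary at 90 nt and 669 with it at 140 nt.

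**Figure D2:**
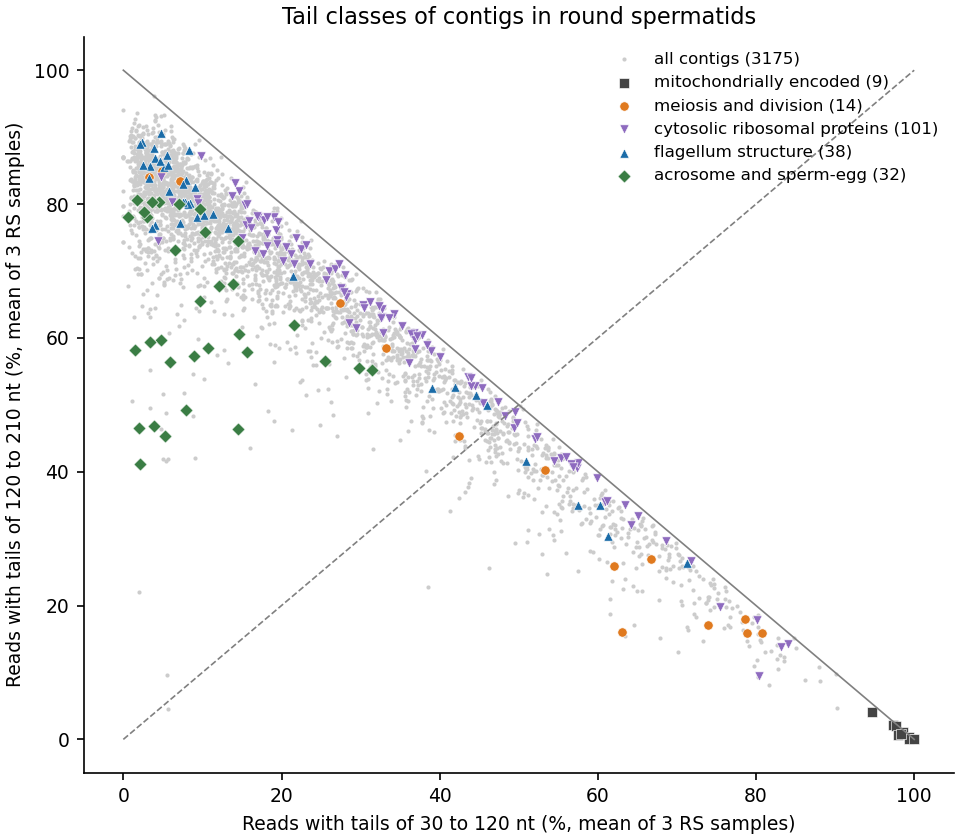
Each point is 1 of the 3175 contigs, placed by its percent of short (x axis) and long (y axis) reads, as means of 3 RS samples; colours mark 5 gene lists. Contigs on the solid line have no other tails, those below the dashed line have more short than long reads, and the 9 mitochondrially encoded mRNAs lie at the lower right. Of the 5 lists, acrosome contigs reach furthest below the solid line at small short shares because of their very long reads. Some contigs outside the lists lie further below it.

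The most abundant mRNAs of RS did not share 1 profile. The 10 genes with most reads were Prm1, Ldhc, Ubb, Tcte3, Tnp1, Prm2, Tnp2, Meig1, Ropn1l and Fhl4. Ldhc, the germ-cell lactate dehydrogenase, had 7232, 7601 and 7292 CPM on its main contig and a long share of 76.9%, 75.6% and 77.6%. Ubb, a polyubiquitin gene, was similarly abundant with 6954, 6733 and 6929 CPM, but only 54.0%, 51.8% and 56.7% of its reads were long and 40.3% ± 2.9 (SD, n = 3) were short. Tcte3, for a Tctex-type dynein light chain, had a long share of 62.3%, 60.2% and 64.5%. Fhl4, a LIM domain gene, had 83.1%, 81.6% and 82.5%, and Meig1, required to build the sperm tail, 87.4%, 85.0% and 84.9%. The samples did not overlap between these genes and Ubb. Tcte3 has near-identical copies on chromosome 17, among which reads can be exchanged. Across the 2916 nuclear protein-coding contigs the rank correlation of abundance with long share was between 0.0663 and 0.105 in the 3 samples. With the contigs divided into 5 equal bins by abundance, the median long share was 70.2% in the lowest bin and 76.0% in the highest.

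The list named for the proteins that replace histones during nuclear compaction held mRNAs with few very long tails. Of 8 contigs of 7 genes on this list of protamines and transition proteins, 6 had a lower very long share than the sample median, against 15.1% of all contigs. None had a higher one. Only Prm1, Prm2, Tnp1 and Tnp2 of the list are named below, and its other genes need not belong to these protein classes. None escaped. Their median long share was 69.5% ± 2.4 and their median short share 26.0% ± 2.53. Within the group the long share was higher than the median for 3 contigs and lower for 4, or for 2 without sample 2. Prm2 (protamine 2) had the highest long share of the group, with 91.1%, 90.1% and 91.5% long reads (adjusted p = 1.11e-10). Prm1 had 77.0%, 70.7% and 80.1% long, only 1.20% ± 0.40 very long and a mean tail of 138, 133 and 142 nt. Tnp1 had 64.6%, 56.8% and 62.6% long and a mean tail of 129, 121 and 129 nt, and Tnp2 had 67.8%, 60.8% and 65.5% long. Both were lower in long share than the typical contig in all 3 samples, and sample 2 was the lowest for each.

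Flagellar mRNAs fell on both sides, with more contigs on the high side. The list of flagellum structure proteins had 38 contigs of 20 genes, with a median long share of 81.0% ± 1.3. The long share was higher than the sample median for 22 contigs and lower for 9, against 28.1% and 31% of all contigs. The low side was thus no larger than over all contigs. Many of the higher contigs came from genes of the outer dense fibres and fibrous sheath (Odf1, Odf2, Odf4, Akap3, Akap4, Cabyr, Fscb, Ropn1, Ropn1l). The others came from Oaz3, Meig1 and Spem1, which are not structural genes of these parts, and from Smcp, for a protein of the mitochondrial capsule. Odf1 had 85.2%, 86.6% and 85.6% long reads, and Smcp 86.6%, 88.9% and 91.6%. The 9 lower contigs belonged to Spag16 and the tektins Tekt1, Tekt2, Tekt3 and Tekt4, which are axonemal proteins, and to a second contig of Cabyr. Of these, both Spag16 contigs, both Tekt2 contigs and Tekt3 escaped, with long shares from 26.4% to 41.6%. That is 5 of the 38 contigs, where 10.2% of all contigs escaped.

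A wider family of axonemal and ciliary genes, chosen after their values were seen and by symbol alone (Cfap, Drc, Rsph, Tekt, Dnah, Dnai, Dnal, Dnaaf, Spag6, Spag16 and Spag17), lay on the low side. It had 51 contigs of 42 genes, of which 35 were lower in long share and 3 higher, and 13 contigs of 11 genes escaped. The median long share was 55.6%, with a range from 11% to 83.3%. Spag6, a central apparatus gene, had 14.7%, 14.6% and 14.9% long reads, and 73.2% ± 2.1 of its reads were short. Foxj1, the transcription factor gene of motile cilia, was also named after its values were seen and escaped, with a long share of 25.1% ± 6.02. As the family was picked on these values, its counts describe it and support nothing.

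Acrosomal mRNAs had the opposite departure, with tails beyond the long class. Of 32 contigs of 26 genes for acrosome and sperm-egg interaction proteins, 24 had a higher very long share than the sample median, against 9.1% of all contigs, and 0 had a lower one. The median very long share of the list was 21.6% ± 0.238, against 9.06% for the typical contig, and its median short share was 7.03% ± 1.33. In long share, 16 contigs were lower, 6 were higher (3 without sample 1 and 2 without sample 2), and none escaped to the short class. Without sample 1, 2 or 3, the contigs higher in very long share were 19, 18 and 21. Acrv1 was the extreme member, with 54.9%, 64.9% and 50.6% of its reads at 210 nt or more (adjusted p = 3.70e-05) and a mean tail of 225, 236 and 220 nt. Zpbp, a zona pellucida binding protein, had 48.2%, 53.0% and 47.1% very long reads, Spaca7 49.2%, 53.0% and 45.8%, and Spaca1 33.7%, 43.2% and 34.7%. In all 4 genes every sample was above the 95th percentile of contigs, which lay between 22.2% and 25.1%, and sample 2 was the highest. Not every acrosomal mRNA did so: Spaca9 had a very long share of 10.4% and 10.2% on its pair of contigs, and neither passed the test.

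**Figure D3:**
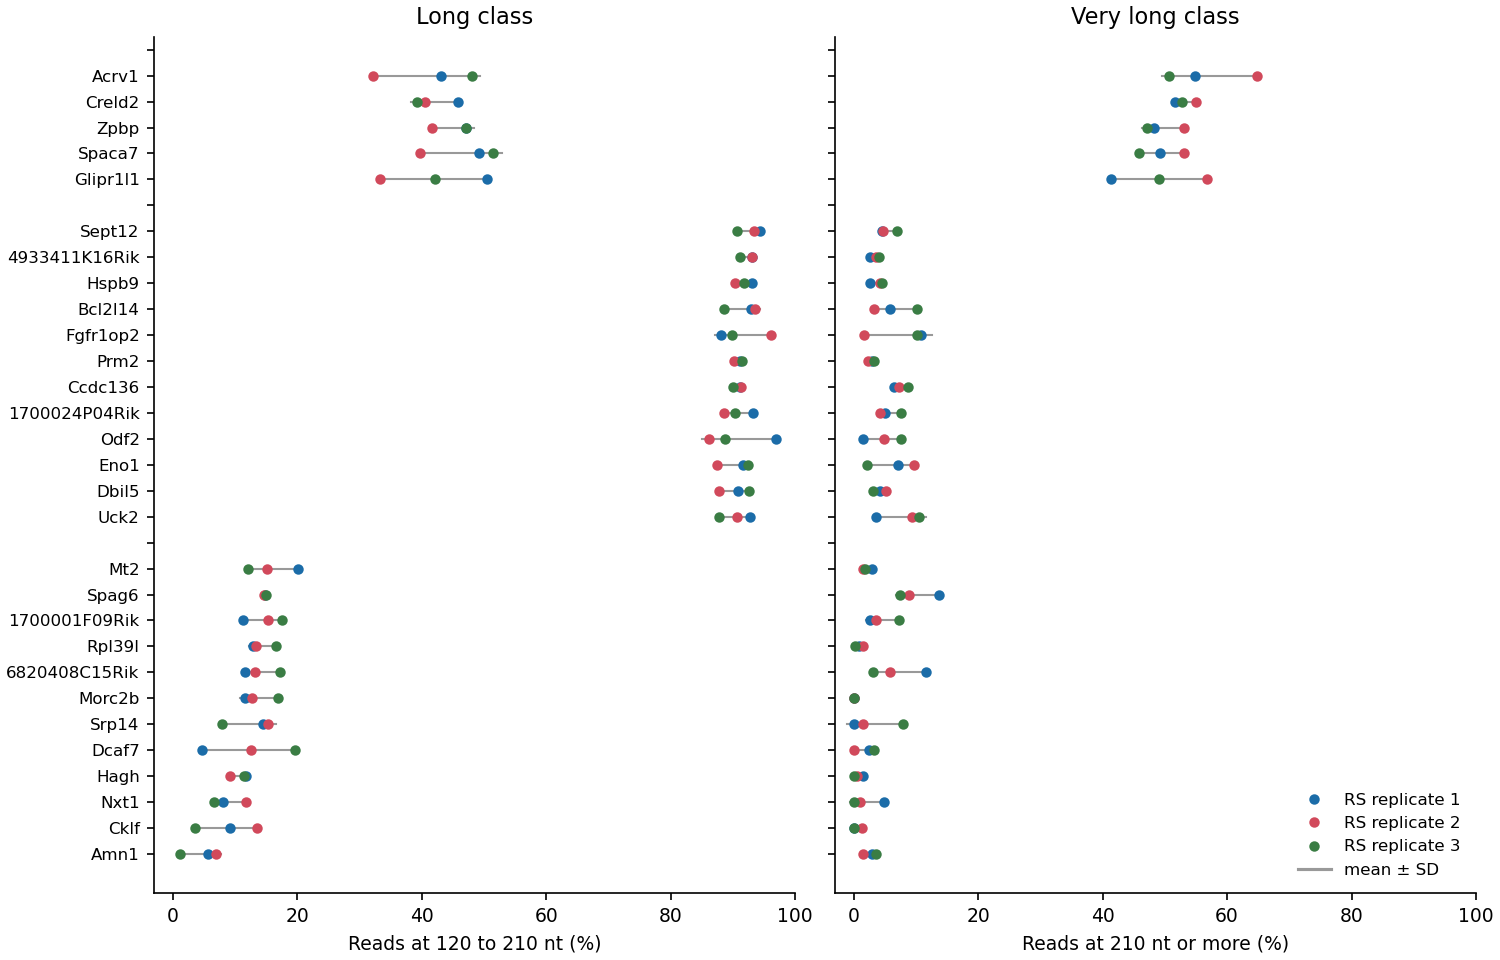
Percent of long (left, x axis) and very long (right, x axis) reads in each RS sample for the 5 genes with the highest very long share and the 12 genes with the highest and the 12 with the lowest long share, among nuclear protein-coding contigs with 50 or more reads in every sample; points are samples and bars are mean ± SD. The 3 sets of genes do not overlap in the panel that chose them, which the choice itself sets.

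Very long tails were also found on mRNAs of several endoplasmic reticulum (ER) proteins. In the list of heat shock and chaperone proteins (34 contigs of 24 genes), the very long share was higher for 8 contigs and lower for 9. The shares over all contigs were 9.1% and 15.1%. The 8 higher contigs came from Hsp90b1, Hspa5, Pdia3, Pdilt, Calr and Clgn, all of which encode residents of the ER. The 9 lower contigs came from Cct2, Cct4, Cct5, Cct8, Tcp1, Dnaja1 and Hspb9, which are cytosolic or nuclear. This division by compartment was noted after the values were seen, and no list of ER proteins was counted. Dnajb9, for an ER co-chaperone outside the list, had only 7.35%, 9.09% and 7.04% very long reads and escaped, so not every ER protein had such an mRNA. Pdilt, a testis protein disulfide isomerase homologue, reached 48.8%, and Hsp90b1, an ER paralogue of HSP90, reached 46.5%. By contrast the cytosolic Hsp90aa1 had 7.78% on its main contig, and Cct8, a subunit of the cytosolic chaperonin, 0.741%.

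Sequence gave another way to describe this, over contigs inside and outside the lists. A hydrophobic stretch near the N terminus is typical of signal peptides, which direct a protein to the ER. For 2885 of the 2916 nuclear protein-coding contigs, the mean Kyte-Doolittle hydropathy was taken over windows of 10 residues within residues 2 to 30 of the annotated protein, and 273 (9.46%) had a window of 2 or more. These contigs had a median very long share of 13.3% against 8.72% for the others. The very long share was higher than the sample median for 77 of the 273 contigs (28.2%) and for 183 of the other 2612 (7.01%). Without sample 1 these counts were 51 and 87, and without sample 3 they were 61 and 110. Of the 273, 9 (3.30%) escaped to the short class, compared with 287 (11%) of the others. Among the 50 contigs with the highest very long share, 27 had such a window. With the window threshold at 1.6 the shares called higher were 21.1% and 6.72%, with 2.4 they were 33.0% and 7.34%, and with 50 reads in every sample they were 35.2% and 9.23%. The contigs with a window include acrosomal and ER contigs named above, such as those of Acrv1, Spaca1, Hspa5 and Hsp90b1. The counts were not repeated without them, so they partly restate the lists. Hydrophobic windows also mark some membrane anchors. The comparison was chosen after the acrosomal values were known, so it is given as a description without a test.

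**Figure D4:**
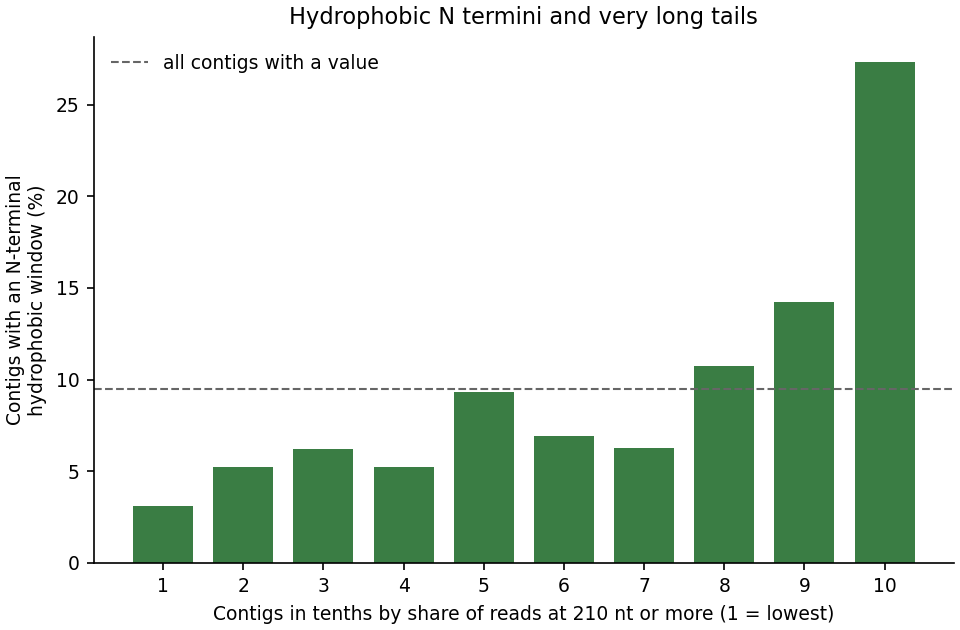
Percent of nuclear protein-coding contigs with an N-terminal hydrophobic window (y axis) in 10 equal bins of contigs ordered by their share of very long reads (x axis, 1 is the lowest bin); the dashed line is the share over all 2885 contigs, 9.46%. The bars run from 3.11% in the lowest bin to 27.3% in the highest, without a steady step from each bin to the next.

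Only 6 contigs (0.189%) had more very long than long reads in every sample. Besides Acrv1 and Creld2, an ER stress-induced gene with 51.6%, 55.1% and 52.8% very long reads, they were 1700024J04Rik, Gm5373, Prr27 and Prss21. The last 4 have few reads and were named after their values were seen. In 1700024J04Rik, annotated as a pseudogene, 92.3%, 85.2% and 92.0% of 26, 54 and 25 reads were very long, with a mean tail of 315 nt ± 5.83. Gm5373, annotated as a processed transcript, had 89.7%, 77.4% and 87.5%. Prss21, a testis serine protease gene, was divided in another way, with 38.5% short, 22.8% long and 35.0% very long reads on average. Long reads were thus the least frequent of its 3 classes on average.

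Energy metabolism of RS also divided by genome. The germ-cell glycolytic and energy enzymes had a median long share of 80.6% ± 0.437 over 21 contigs of 15 genes, with 12 contigs higher than the sample median and 4 lower. Of all contigs, 28.1% were higher and 31% lower. Pgk2, a germ-cell phosphoglycerate kinase, had 82.7%, 84.5% and 85.9% long reads, and Pgam2 had 84.6%, 88.8% and 87.7%. The 4 lower contigs were Gk2, Pdha2, Pfkp and Slc2a3, and of these Pdha2, the testis pyruvate dehydrogenase subunit, escaped with a long share of 34.7%. Nuclear-encoded respiratory chain subunits were balanced in long share only. Of their 64 contigs of 58 genes, 22 were higher and 22 lower in long share, and 6 escaped. These counts were near the shares over all contigs, of which 10.2% escaped. The very long share was lower for 34, against 15.1% of all contigs, and higher for 0. The median long share was 72.8% ± 0.753, close to that of the typical contig. Their median very long share was 4.39% against 9.06% for the typical contig, and their median short share 20.3% against 14.8%. The median of their mean tails was 148.6 nt against 160.5 nt.

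All 9 mitochondrially encoded mRNAs that passed the read minimum escaped. Their tails are added in the mitochondrion by its own poly(A) polymerase. Their median long share was 0.864% ± 0.388 and their median mean tail 67.4 nt ± 1.74. Mt-Co1, with 601, 884 and 616 reads, had a mean tail of 72, 71.0 and 74.3 nt and a long share of 0.832%, 1.13% and 1.3%. For mt-Nd1, 0 of 106, 130 and 90 reads were long. The 4 unprocessed pseudogenes among the contigs, Gm10925, Gm28437, Gm28661 and Gm29216 on chromosome 1, had long shares of 2.6% or less, and they are near-identical copies of mitochondrial sequence, so that their reads cannot be told apart from mitochondrial ones.

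Genes of meiosis and cell division had the lowest median long share among the nuclear lists, on contigs with few reads. Of 14 contigs of 14 genes, 10 were lower in long share, 3 were higher and 8 escaped, and the median long share was 35.5% ± 2.4. Among all contigs 31% were lower, 28.1% higher and 10.2% escaping. With 50 reads in every sample 4 of the 14 contigs were left, of which 2 were lower and 2 higher. The escaping genes were the cyclins Ccna1, Ccnb1 and Ccnb2, the kinases Aurka and Plk1, Cdc20 and Pttg1, which act at the anaphase transition, and the meiotic cohesin Rec8. Ccna1 had short shares of 64.3%, 61.9% and 73.8% and long shares of 33.3%, 26.2% and 21.4%, from 42 reads in each sample. The 3 higher contigs were Syce1 and Syce3, of the synaptonemal complex, and the cohesin Stag3, with mean long shares of 85.0%, 83.5% and 84.1% in that order. The list was therefore not uniform, and Syce1, for example, stood above the median contig in every sample, with 83.6%, 87.0% and 84.2%. Of the 4 P/D markers that passed, Ccna1 and Spag6 escaped.

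The lists for the machinery of gene expression differed from each other. Splicing factors and hnRNPs were on the low side, with 13 of 16 contigs lower in long share, 0 higher, 5 escaping (Sf3b2, Sf3b4, Snrpf, Srsf3 and Tra2b) and a median long share of 47.1% ± 2.79. Histone and HMG genes resembled them, with 6 of 8 contigs lower, 0 higher and a median of 41.9% ± 3.07. For comparison, 31% of all contigs were lower, 28.1% higher and 10.2% escaping. The replacement histone gene H3f3b escaped on both its contigs, its main contig having 35.7%, 37.5% and 37.1% long reads. H2afz, a histone variant gene, also escaped, with 38.2%, 39.6% and 42.6%. Most replication-dependent histone mRNAs end in a stem loop without a tail.

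RNA-binding translation regulators were on the high side, with 7 of 15 contigs higher, 2 lower and a median long share of 78.1% ± 0.165. Ybx1, Ybx2 and Ybx3 encode Y-box proteins that package stored mRNA, and their main contigs had long shares of 84.5% ± 1.10, 82.4% ± 1.38 and 78.5% ± 0.682. The 2 lower genes, Adad1 and Dazap2, both escaped. Translation initiation and elongation factors had a median of 70.9% ± 1.06, with 7 of 33 contigs higher, 10 lower and 2 escaping (Eif3m and Eif4a3). Over all contigs 28.1% were higher and 31% lower in long share. PIWI, Tudor and germ granule genes were near those shares, with 4 of 13 contigs higher and 4 lower. Both contigs of Tdrd7, a Tudor protein of the chromatoid body, escaped.

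The genes that make, bind or remove tails had 3 of 10 contigs higher and 4 lower in long share. These counts were near the shares over all contigs, 28.1% and 31%. None escaped, and the median long share was 69.4% ± 4.25. The higher ones were Tent5c, a noncanonical poly(A) polymerase, with 85.5%, 84.8% and 85.6% long reads, Papolb, the testis-specific poly(A) polymerase, with 83.6%, 79.9% and 81.1%, and Pabpc1, the main cytoplasmic poly(A)-binding protein, with 79.6%, 81.3% and 78.3%. Pabpc2, another poly(A)-binding protein gene, was lower, with 67.1%, 60.3% and 65.7%. Spermatid transcription regulators had a median of 68.9% ± 2.63, with 3 of 22 contigs higher (1 without sample 1), 7 lower (4 without sample 1 or without sample 2) and 1 escaping, which was Tbp. The lower count was near the 31% of all contigs, and the escaping count was below their 10.2%. No testis-specific serine kinase contig was lower. Of 8 contigs 4 were higher, against 28.1% of all contigs, and Tssk1 had 87.2%, 84.8% and 84.7% long reads.

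Cytosolic ribosomal protein genes and proteasome subunit genes had more contigs lower than higher in long share. Of 101 contigs of 78 cytosolic ribosomal protein genes, 55 were lower in long share, 16 were higher and 21 escaped, and the very long share was lower for 75. The matching shares of all contigs were 31%, 28.1%, 10.2% and 15.1%. The median long share was 63.4%. Rpl39l, the testis paralogue of Rpl39, was among the most short-tailed, with 13.0%, 13.3% and 16.6% long reads at 1219, 1279 and 1239 CPM. Rplp0, for a protein of the ribosomal stalk, had 72.9%, 71.3% and 73.5%, near the sample median, and did not pass the test. Proteasome subunits had 13 of 26 contigs lower, 4 higher (2 without sample 1) and 7 escaping, with a median of 60.3% ± 2.74. Among the catalytic core subunits, Psmb6 had 25.5%, 19.7% and 26.8% long reads, whereas Psmc2, of the regulatory particle, had 85.3%, 82.0% and 89.0%. Of 5 tubulin contigs, 2 were lower and 1 higher (2 without sample 2 or without sample 3). Tuba3a and Tuba3b encode the same protein and share much sequence, so that their separate long shares of 46.4% ± 2.41 and 29% ± 1.16 depend on how reads were assigned, while Tubb4b had 78.0% ± 2.15.

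**Figure D5:**
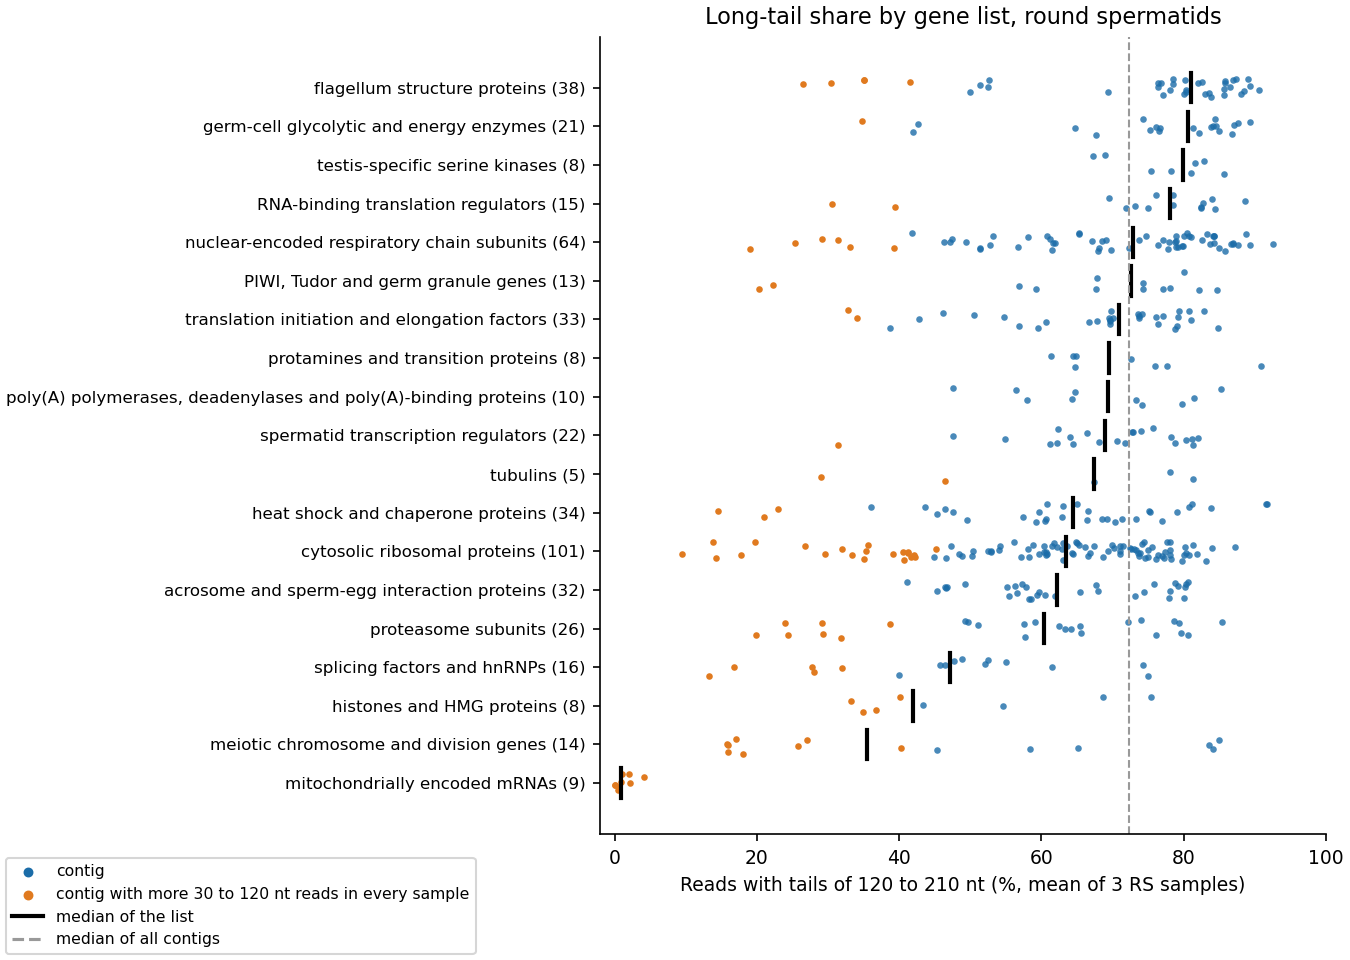
Long share (x axis, percent of reads, mean of 3 RS samples) of every contig in 19 gene lists, with the number of contigs in parentheses; orange points are escaping contigs, black bars are list medians and the dashed line is the median of all contigs. List medians run from 81.0% for flagellum structure proteins to 0.864% for mitochondrially encoded mRNAs, and most lists hold contigs on both sides of the dashed line.

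The single genes furthest from the typical contig were mostly not members of one pathway. Among nuclear protein-coding contigs with 50 or more reads in every sample, the 12 genes with the lowest long share were Amn1, Cklf, Nxt1, Hagh, Dcaf7, Srp14, Morc2b, 6820408C15Rik, Rpl39l, 1700001F09Rik, Spag6 and Mt2. Amn1 had long shares of 5.71%, 6.98% and 1.20%, Nxt1, an mRNA export cofactor, 8.06%, 11.7% and 6.67%, and Mt2, a metallothionein, 20.2%, 15.2% and 12.1%. The 12 genes with the highest long share were Sept12, 4933411K16Rik, Hspb9, Bcl2l14, Fgfr1op2, Prm2, Ccdc136, 1700024P04Rik, Odf2, Eno1, Dbil5 and Uck2. Sept12, a septin of the sperm annulus, had 94.3%, 93.3% and 90.7%, and Hspb9, a testis small heat shock protein, 93.0%, 90.4% and 91.9%. Odc1, the first enzyme of polyamine synthesis, had 78.4%, 74.4% and 75.3% long reads, and did not pass the test against the sample median (adjusted p = 0.14, limma). The shortest tails of all were rare. Gtf2b, a general transcription factor gene named after its values were seen, had the highest share of reads under 30 nt, with 10.7%, 18.9% and 12.8%.

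The last 30 annotated bases of 6 of these transcripts are shown because the poly(A) signal, usually AATAAA or ATTAAA, lies just upstream of the site where the tail is added and could be compared between tail profiles. Capitals mark each of these signals, of which the Acrv1 window held both, and bases are given on the transcript strand of GRCm38 from GENCODE vM21.
Acrv1 (very long; chr9:36698814-36698843, plus strand): tcttttttgcAATAAAttgctATTAAAgaa
Prm2 (long; chr16:10791380-10791409, minus strand): gccacctgccaAATAAAgcttgacacgaga
Hspb9 (long; chr11:100714546-100714575, plus strand): ctaatgtATTAAAccgaggtgtgcagcagc
Odf1 (long; chr15:38226706-38226735, plus strand): gtaggaaacttaatacagaattgcatctga
Nxt1 (short; chr2:148675998-148676027, plus strand): ttgacaAATAAAtatgttgcttttctgcct
Cklf (short; chr8:104263417-104263446, plus strand): acttATTAAActaattatttatacatccat
Each signal was found in a long and in a short profile, and the Odf1 window held neither.

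Over the 2916 nuclear protein-coding contigs, the signal in the last 40 annotated bases separated the profiles little. The 1803 contigs with AATAAA (61.8%) had a median long share of 71.8% ± 0.235, the 414 with ATTAAA and no AATAAA (14.2%) 69.9% ± 0.9, and the 699 with neither (24.0%) 73.7% ± 1.1. Escaping contigs made up 10.4%, 11.8% and 8.58% of the same classes. TTTTAT or TTTTAAT, the letters of cytoplasmic polyadenylation elements, were in the last 100 bases of 376 contigs (12.9%), of which 34 (9.04%) escaped, compared with 263 (10.4%) of the other 2540. The median long share was 69.0% ± 1.61 with these letters and 72.4% ± 0.459 without them, and the median short share 17.8% ± 2.52 and 14.9% ± 1.17. Of the 376, 139 were lower in long share than the sample median and 72 were higher, compared with 786 and 734 of the others. An annotated end need not be the end used in RS. Transcript length was related to the very long share, with rank correlations between 0.256 and 0.264 in the 3 samples over the same 2916 contigs. With the long share the correlations were between 0.00804 and 0.0188. The median very long share was 6.62% in the shortest of 5 equal bins of transcripts and 11.3% in the longest, and escaping contigs were 12.3% of the shortest bin and 6.17% of the longest.

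A few groups stood apart by their position in the genome. Of 2873 autosomal contigs 284 (9.89%) escaped, and of 34 X-linked contigs 5 did. Of 9 Y-linked contigs 8 escaped, and their median long share was 25.1% ± 1.89. The Y-linked contigs belong to multicopy genes and may share reads, so they are not 9 independent genes. Chromosome 17 had the highest share of escaping contigs among the autosomes, with 31 of 179 (17.3%). Several of these also belong to families of related genes, since 3 of the 4 Dynlt1 genes there escaped. Among annotated non-coding classes, 72 processed transcripts had a median long share of 77.6% ± 0.478, 59 contigs annotated for nonsense-mediated decay 76.6% ± 1.42 and 42 retained-intron transcripts 76.8% ± 2.14. Those classes share most of their sequence with protein-coding isoforms. The 13 repeat-element contigs had a median of 78.1% ± 7.81, and none escaped.

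Of the 2586 genes, 438 had more than 1 contig, and each further contig was compared with the contig of most reads. Of these 537 pairs, 35 (6.52%) had a shorter and 58 (10.8%) a longer mean tail than the main contig by limma. Over the same pairs the first count was 7, 20 and 19 without sample 1, 2 or 3, and the second was 16 without sample 1. Among 187 pairs whose annotated 3′ ends lay over 50 bases apart, 47 (25.1%) were called, compared with 46 of 350 (13.1%) with nearer ends. Where ends are close, sequencing from the 3′ end gives little to tell isoforms apart. In 20 pairs only 1 contig escaped. An example is Ube2d3, a ubiquitin-conjugating enzyme gene on chromosome 3, whose annotated ends lay 1525 bases apart. Its main contig, with the shorter 3′ UTR, had mean tails of 108, 115 and 117 nt, and the other contig 167, 164 and 166 nt, a difference of 51.9 nt ± 3.54 (SE, adjusted p = 1.35e-08). The samples of the 2 contigs did not overlap.

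Large differences among pairs with 50 or more reads in every sample were also found in Dkkl1, Phyhipl, Dnajb6 and Ccl27a. Dkkl1, an acrosomal protein gene, was the only 1 of these 5 genes with a shorter tail on the minor contig, at 148, 163 and 176 nt against 199, 201 and 202 nt, and its annotated ends were only 6 bases apart. The minor contigs of Phyhipl, Dnajb6 and Ccl27a were longer-tailed than the main contigs by between 26.7 and 35.1 nt. The difference in Ccl27a was 19.9 nt without sample 1 and then missed the threshold. Phyhipl, for example, had 187, 187 and 179 nt on the minor contig and 151, 150 and 148 nt on the main one. Manf, an ER stress gene picked after its values were seen, had a contig that escaped with 27.7% long reads and another with 40.5% very long reads.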

How the data were processed

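Native poly(A) RNA of the 3 RS samples was sequenced by the authors on nanopore flow cells. After basecalling and demultiplexing, reads were aligned by minimap2 (2.20-r1061 in the submitters' processing notes) to GENCODE transcripts and repeat elements of GRCm38 (mm10), and their tails were estimated by Nanopolish. The authors deposited raw counts per contig and, as another unit, the tail length in nt of every read; neither was normalised. CPM here are counts over all deposited counts of the sample, without further scaling. Oligo(dT) selection can lose very short tails, and the tail estimates carry an error per read that was not measured here.

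Shares of reads per class were tested on the logit scale (offset of 0.5 reads) and mean tails in nt, each minus the sample median, with an intercept-only limma fit (limma 3.58.1, R 4.3.3) whose variance trend followed mean reads. Isoform pairs were fitted likewise on their difference. Values are means ± SD over the 3 samples unless named otherwise. GENCODE vM21 held 3123 of the 3162 transcripts and gave symbols, coordinates and sequences. Summaries used Python 3.11.15, numpy 2.4.6, pandas 2.3.3 and matplotlib 3.10.9.

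The rule for contigs, the 25 gene lists and the named genes were chosen with earlier results of these data known. Named were the label markers and genes the study names, the 10 most abundant genes, 12 at each end of the long share, 5 with most very long reads, the 6 isoform pairs that differed most (1 is not reported here), up to 4 members of a list with most reads together with every mitochondrial member, and 3 contigs per biotype; members of lists that are counted were also named, and others are marked. On simulated data with 200 of 3175 contigs changed, limma called 138 of them and 1 other at 15 nt, and 199 and 5 others at 30 nt. For the long share it called 135 and 9 others at 15 points. The simulation had noise from read sampling only, without a spread between pools, and gave all unchanged contigs the same level. The data differ in both, so these counts do not give the rate of false calls in the data. Alternatives were other read minimums, class bounds, scales and fits, medians for means, and leaving out each sample, both on the same contigs (the values in the results) and on the contigs with 20 reads in each of the remaining samples. P/D samples and the columns of counts for them were not used.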

Additional observations from a re-analysis of the deposited data

How the results depend on the processing

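With 50 reads in every sample 1352 contigs were tested in place of 3175, and counts fell with the number tested: mean tail 568 lower and 534 higher, long share 509 and 478, very long share 307 lower, isoform pairs 11 and 15, escaping contigs 152, and contigs past the long class 2. Escaping contigs numbered 514 with 10 reads in every sample, 73 with the class boundary at 90 nt and 669 with it at 140 nt. Isoform pairs called lower were 18 with median tails and 20 without the variance trend, and contigs higher in very long share were 481 on the plain percent scale; the cause was not tested. The median long share of contigs with AATAAA was 69.1% over pooled reads and 74.3% with 50 reads, and of contigs with neither signal 70.3% and 74.9%. Leaving out each sample in turn on the same contigs gave 1079 to 1149 contigs with a lower and 849 to 965 with a higher mean tail, 850 to 951 and 731 to 814 for the long share, 345 to 476 lower and 147, 202 and 185 higher for the very long share, 7, 20 and 19 lower and 16 to 46 higher for isoform pairs, 335 to 393 escaping contigs and 8 to 9 past the long class. Where the contigs were also chosen anew by 20 reads in each remaining sample, which left 3203 to 3679 contigs, these counts were 1084 to 1276 and 847 to 1069, 866 to 1021 and 760 to 838, 287 to 471 and 101 to 197, 12 to 20 and 38 to 52, 336 to 444, and 9 to 11. For 35 contigs and pairs singled out by the naming rule, 440 of 441 values under the alternatives kept their direction and their call, the exception being Ccl27a, whose pair missed the threshold without sample 1. Alternatives on the same contigs and those for the very long share, the contigs past the long class and the hydropathy window were chosen after seeing the data. No paired analysis was possible because 1 group was described and no second group was compared with it. A contig with 20 reads has shares in steps of 5 points, which limits what low counts can show.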
